A study of Mus musculus with 13 samples.

Results

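Gene expression was compared between resting macrophages without HDAC3 and resting macrophages with the intact enzyme. The macrophages were grown from bone marrow of male C57BL/6 mice, 12 to 16 weeks old, and every mouse carried Hdac3 alleles with loxP sites around exons 4 to 7. The knockout (KO) cells also expressed Cre recombinase from the lysozyme M promoter, which is active in macrophages and other myeloid cells. The control cells had the floxed alleles and no Cre, so loss of HDAC3 and presence of Cre go together in this design. Marrow was cultured for 6 days in 30% L929-conditioned medium, a source of the macrophage growth factor CSF1, with a change of medium on day 4. The replated cells then received vehicle, 0.1% bovine serum albumin, for 24 hours. The comparison uses 7 of the 13 one-colour whole-genome arrays of the study, namely 3 of KO vehicle cells (arrays 5, 6 and 7) and 4 of control vehicle cells (arrays 1, 2, 3 and 4). The other 6 arrays measured KO and control cells given 10 ng/mL interleukin-4 (IL-4) for 24 hours, 3 of each. The arrays were taken by their titles, and all genes with a usable probe, 20545, were tested.

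HDAC3 removes acetyl groups from histone tails, and it does this as the catalytic subunit of complexes built on NCOR corepressors. Transcription factors, among them unliganded nuclear receptors and BCL6, bring these complexes to enhancers and promoters, where they hold genes down. In macrophages HDAC3 is known for roles in both directions: it represses some enhancers of alternative activation, and it is needed for the full expression of many genes induced through interferon-β. Alternative activation is the state that IL-4 induces through the factor STAT6.

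Levels below are log2 intensities relative to the 75th percentile of the same array, so a level of 0 is that percentile, and they are given for KO arrays 5, 6 and 7 and then for control arrays 1, 2, 3 and 4, in that order. A fold change is the KO vehicle mean minus the control vehicle mean on the log2 scale, with its standard error from limma. A gene was called at a limma adjusted p under 0.05 (Benjamini-Hochberg over all genes tested). Nothing in the labels says that the arrays of a group came from separate mice or cultures. The p-values therefore rest on the spread among these 13 samples alone, and that spread may be technical.

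Hdac3, the targeted gene, had levels of -3.67, -3.12 and -3.46 on the KO vehicle arrays, against -1.7, -2.14, -2.01 and -2.18 on the control vehicle arrays. The groups did not overlap, and the KO signal was 37.7% of the control signal (log2 fold change -1.41 ± 0.22, adjusted p = 0.00291). Whether the probe lies inside the deleted exons was not determined, so the remaining signal does not measure the share of undeleted cells. Lyz2, the gene whose promoter drives Cre, had levels of 7.7, 7.6 and 7.62 in KO and 7.68, 7.66, 7.52 and 7.77 in control vehicle cells and was not called (log2 fold change -0.017). Of the partners of HDAC3, the corepressor scaffold Ncor1 was not called (0.024). Tbl1xr1, a subunit of the NCOR complexes, was called higher, with levels of 3.34, 3.15 and 3.12 in KO and 2.61, 2.68, 2.65 and 2.67 in control vehicle cells (log2 fold change 0.55 ± 0.13, adjusted p = 0.0279), and its call was lost in 11 of 20 alternatives (adjusted p up to 0.154). Of 19 corepressor and deacetylase genes tested, Tbl1xr1 rose and Hdac3 fell, against 2.46% of all genes tested that rose and 2.29% that fell, and the other 17 ran from -0.41 to 0.54.

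The share of spots well above background ran from 56.2% to 83.2% over the 13 arrays and was lowest on control vehicle array 4, where the negative controls averaged 131.3 intensity units. Correlation across genes between arrays of the same vehicle group ran from 0.981 to 0.990. Control arrays 1, 2 and 3 shared slides with KO arrays 5, 6 and 7, and control array 4 lay on another slide. Each group had an array position of its own on every slide, and effects of position and of group cannot be told apart. The macrophage list had all 12 members measured well above background on all 7 vehicle arrays, with a summed linear level of 564 to 591 in KO cells and 570 to 623 in control cells. Of these 12, 4 were called higher and 1 lower, where 4.75% of all genes tested were called either way. Of the T and NK cell markers 1 of 8 was called higher and 1 lower, of the B cell markers 1 of 6 lower, of the stromal markers 1 of 11 lower, and of the neutrophil, dendritic cell and erythroid markers 0 of 9, 0 of 6 and 0 of 6. Of 7 monocyte markers Ly6c2 and Ccr2 were called, both lower, and the list's median was 0.0095, with 4 of 7 values above 0. The summed level of the 7 was 7.72 to 14.2 in KO cells, against 34.0 to 45.7 in control cells. Without Ly6c2 and Ccr2 it was 2.79 to 3.69 in KO cells, against 2.49 to 4.36 in control cells. These 2 were left out because they were called, so overlap of the remaining sums cannot show whether monocyte content differed. Of the 7 markers, 3 lay lower in KO cells without overlap, where 7.91% of all genes tested did. In such bulk RNA, fewer cells of a type and less RNA per cell cannot be told apart.

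**Figure D1:**
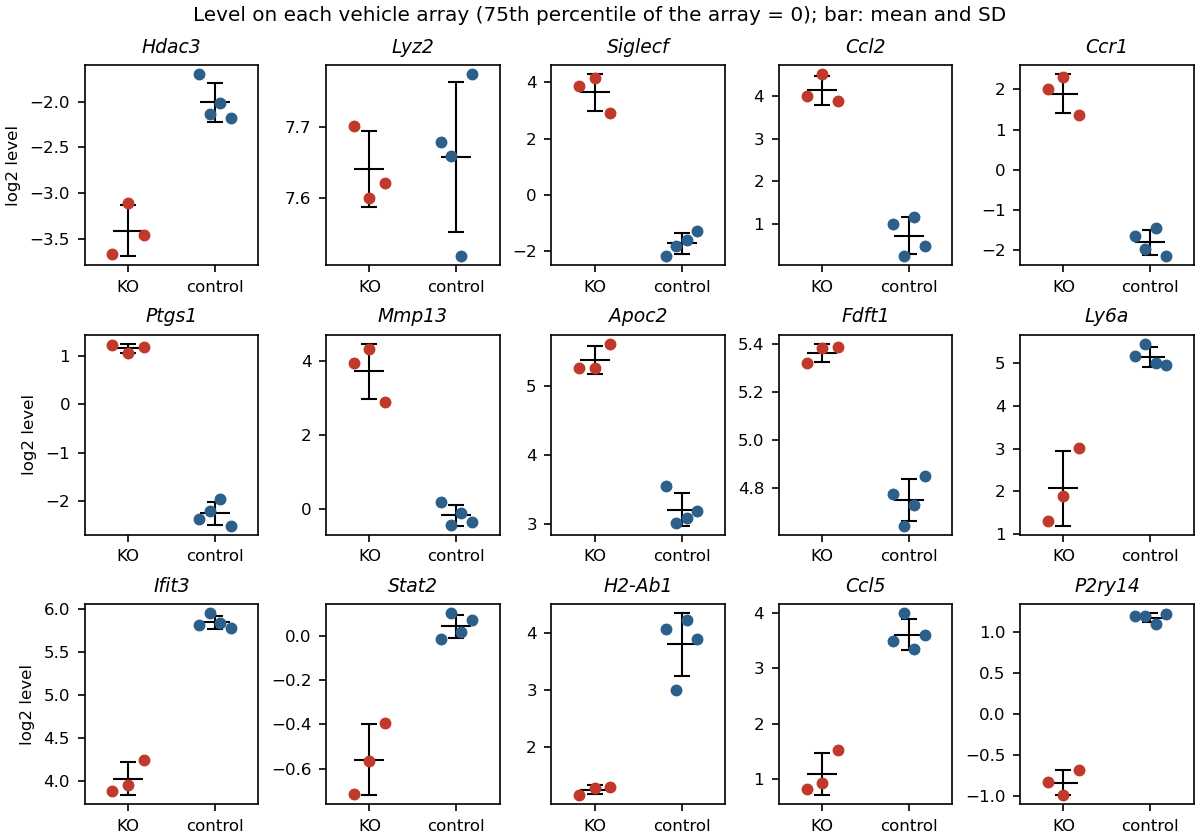
Log2 level of 15 genes on each vehicle array, with the 75th percentile of the array at 0; points are arrays (KO vehicle, n = 3, left; control vehicle, n = 4, right) and the bar gives mean and SD. KO and control arrays do not overlap for any gene drawn except Lyz2, whose levels run from 7.6 to 7.7 in KO and from 7.52 to 7.77 in control cells.

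HDAC3 loss left 505 genes higher and 470 genes lower, which is 2.46% and 2.29% of the genes tested and 4.75% together. The median log2 fold change of all genes was 0.024. At least 2-fold changes made up 145 of the higher genes (0.706% of genes tested) and 135 of the lower genes (0.657%). Within the 3 slides that hold an array of each group, all 505 higher genes were higher and all 470 lower genes were lower on every slide, but these arrays are among those on which the genes were called, so this is a description. With the slide as a block, 396 genes were higher and 350 lower. Leaving out 1 vehicle array at a time gave 244 to 479 higher and 214 to 371 lower genes. The counts were smallest without KO array 5 (247 higher and 214 lower, of which 245 and 213 were among the genes called with all arrays) or KO array 6 (244 and 216, of which 243 and 215 were). Without control array 1, 3 or 4 the lower genes numbered 311, 295 and 300.

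**Figure D2:**
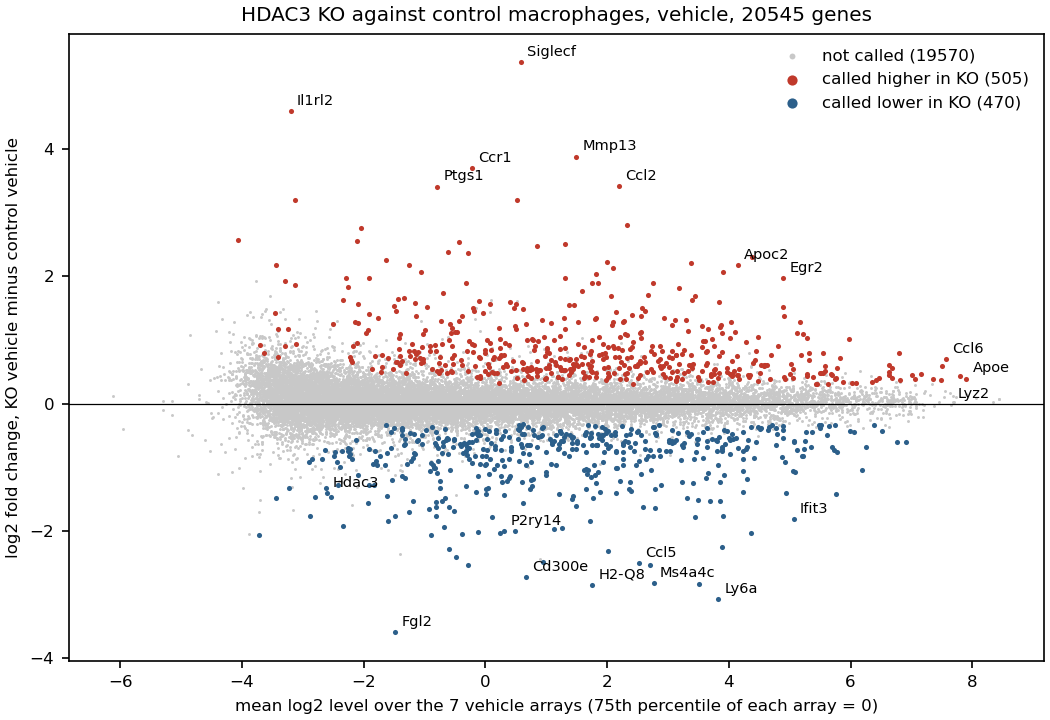
Log2 fold change (KO vehicle minus control vehicle) of 20545 genes against the mean log2 level over the 7 vehicle arrays; red and blue points are the 505 genes called higher and the 470 called lower in KO cells, grey points were not called. Siglecf at 5.36 and Fgl2 at -3.59 mark the ends of the range of called genes.

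The 3 KO arrays were not equally far from the controls. Array 7 was the least changed KO array for 668 of the 975 called genes (68.5%), arrays 5 and 6 for 141 and 166. The median size of the change was 0.602 on array 7, against 0.78 on array 5 and 0.78 on array 6, all relative to the control mean. The Hdac3 level of array 7, -3.46, lay between those of arrays 5 and 6. Array 7 shows as the odd value in many of the genes below, and leaving it out gave 479 higher and 371 lower genes. The cause of its smaller changes was not tested.

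**Figure D3:**
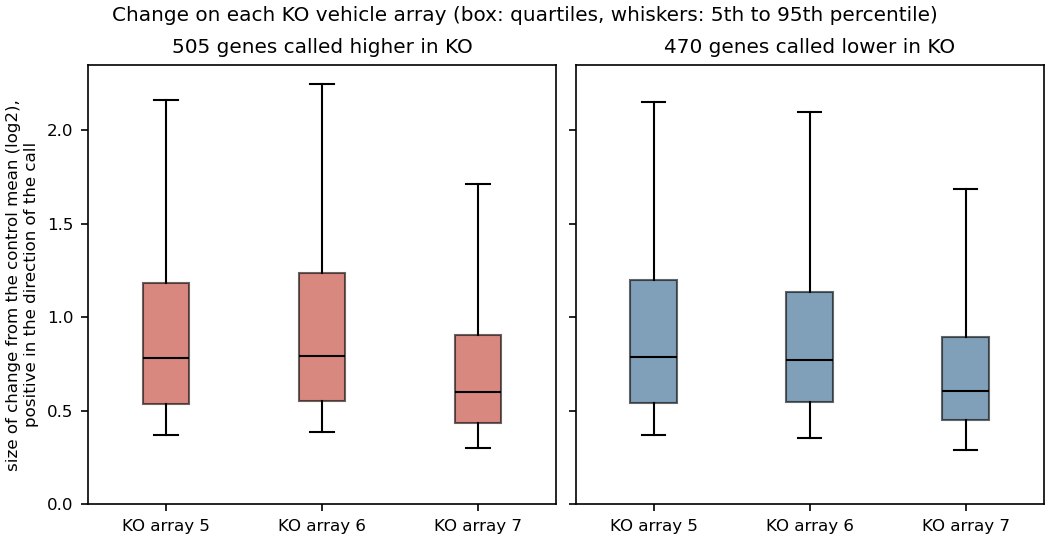
Size of the change from the control mean on KO vehicle arrays 5, 6 and 7 (log2, counted positive in the direction of the call), over the 505 genes called higher (left) and the 470 called lower (right); boxes are quartiles and whiskers the 5th to 95th percentile. The boxes of array 7 sit lowest, with a median of 0.601 in higher genes and 0.605 in lower genes.

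Siglecf, an inhibitory sialic acid receptor best known from eosinophils and alveolar macrophages, had the highest fold change of all called genes. Its probe (chr7:50614417-50614476, mm9) read 3.86, 4.15 and 2.92 on the KO arrays, against -2.17, -1.8, -1.62 and -1.28 on the control arrays. The lowest KO value was array 7, and it still lay far above the highest control. The difference was 41.1-fold (log2 fold change 5.36 ± 0.36, adjusted p = 1.75e-05). Of 7 eosinophil, basophil and mast cell genes tested only Ccr3 was called, lower, where 4.75% of all genes tested were called. The list's median was 0.023. The summed linear level of the 7 was 20.7 to 24.0 in KO cells, against 38.6 to 44.2 in control cells. Without Ccr3 it was 0.861 to 1.04 in KO cells, against 0.814 to 0.988 in control cells. Ccr3 was left out because it was called, so this overlap cannot show whether the content of such cells differed. The granule protein gene Prg2 averaged -1.69 ± 0.46 in KO and -1.81 ± 0.22 in control cells (SD, n = 3 and 4), a log2 fold change of 0.12 that was not called. Epx, eosinophil peroxidase, was well above background on 2 of 3 KO and 2 of 4 control arrays and was not called either (0.023).

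Il1rl2, the receptor of the interleukin-36 cytokines, was not well above background on any of the 4 control arrays and was so on all 3 KO arrays. Its levels were -0.51, -0.35 and -0.85 in KO and -4.52, -5.22, -5.94 and -4.99 in control cells, and KO cells were at least 10.9-fold higher (adjusted p = 9.65e-06). A bound of this kind sets the mean of the measured group against the lowest signal that counts as well above background, or the probe's own value where that is higher. The adjusted p beside a bound is from the limma fit on the probe's own values, dim ones included, and does not test the bound. A gene not well above background on any control vehicle array entered the test only through another group. Klrb1c, a lectin-like receptor of NK cells, was at -1.88, -1.76 and -2.95 in KO and -5.02, -4.55, -4.12 and -3.79 in control cells. KO cells were at least 3.49-fold higher (adjusted p = 0.00802), and the gene was not called without KO array 5 or without KO array 6 (adjusted p up to 0.0536). Cish, a feedback inhibitor of cytokine receptors, was at least 2.54-fold higher in KO cells (adjusted p = 0.00123). A second Klrb1c probe gave 1.22, and the NK cell receptor Ncr1 was not called (0.087). The summed level of the 8 T and NK cell markers was 2.09 to 2.22 in KO cells, against 2.40 to 2.49 in control cells. Without Klrb1c and Cd28, a costimulatory receptor that was called lower, it was 1.48 to 1.61 in KO cells, against 1.29 to 1.69 in control cells. These 2 were left out because they were called, so the overlap cannot show whether T or NK cell content differed. Galnt9, which starts O-linked glycosylation, was at -0.93, -0.69 and -2.28 in KO and -3.62, -4.81, -4.48 and -5.1 in control cells, with array 7 the lowest KO value. It was well above background on 1 of the 4 control arrays (adjusted p = 0.00342).

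At the other end, Fgl2, a fibrinogen-like protein with prothrombinase activity, had the lowest fold change of the called genes. Its levels were -4.5, -3.74 and -2.37 in KO and -0.21, 0.052, 0.16 and 0.23 in control cells (log2 fold change -3.59 ± 0.38, adjusted p = 0.000313), and 2 of the 3 KO arrays were well above background. P2ry14, a receptor for UDP-glucose, varied little within either group. It read -0.83, -0.98 and -0.68 in KO, against 1.19, 1.18, 1.09 and 1.21 in control cells (log2 fold change -2.0 ± 0.094, adjusted p = 1.63e-06), which left 25% of the control signal. Cd300e, an activating receptor of monocytes, was at -1.76, -1.22 and 0.31 in KO and 1.23, 1.89, 2.28 and 1.96 in control cells (adjusted p = 0.00836). Array 7 stood well above the other KO arrays, and Cd300e was not called without KO array 5 or without KO array 6 (adjusted p up to 0.0528).

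Most interferon-stimulated genes fell. Type I interferon binds the receptor pair IFNAR1 and IFNAR2, the kinases behind it phosphorylate STAT proteins, and these join IRF9 to form a complex that binds interferon-stimulated response elements in promoters. Of 38 antiviral interferon-stimulated genes tested, 31 fell and 0 rose, where 2.29% of all genes tested fell and 2.46% rose. The other 7 did not pass the test. The list's median log2 fold change was -0.75, against 0.024 for all genes, and all 38 values were below 0. KO and control arrays did not overlap for 37 of the 38, where 7.91% of all genes tested lay lower without overlap and 9.03% lay higher. The list's median was -0.88, -0.78 and -0.62 within slides 1, 2 and 3. Leaving out 1 vehicle array at a time left 20 to 28 members lower, with 20 without KO array 5 or 6.

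Ifit3, whose protein binds foreign RNA together with IFIT1, had levels of 3.89, 3.95 and 4.24 in KO and 5.82, 5.95, 5.84 and 5.78 in control cells. Every KO array lay more than 1 log2 unit below every control array, and 28.3% of the control signal remained (log2 fold change -1.82 ± 0.15, adjusted p = 6.29e-05). Its close relative Ifit3b read 0.37, 0.65 and 1.04 in KO and 2.83, 3.31, 3.01 and 2.89 in control cells (adjusted p = 0.000798). Ifit2 fell by more than Ifit1, with log2 fold changes of -1.63 ± 0.26 and -0.75 ± 0.10 (adjusted p = 0.00392 and 0.0012). Isg15, a ubiquitin-like modifier, was at -0.46, -0.47 and -0.15 in KO and 0.57, 0.61, 0.76 and 0.45 in control cells (log2 fold change -0.96 ± 0.14, adjusted p = 0.002).

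Within the antiviral list several members act on viral RNA. Oasl1, an OAS-like protein that restrains Irf7 translation in mice, was at 2.6, 2.98 and 2.85 in KO and 4.48, 4.22, 4.58 and 4.09 in control cells (adjusted p = 0.000302). Oas1a, which makes the 2-5A messenger that activates RNase L, fell less (-0.65 ± 0.10, adjusted p = 0.00342). The RNA helicase sensors Ifih1 (MDA5, -0.89) and Ddx58 (RIG-I, -0.71) fell as well. Isg20, an exonuclease, read -2.88, -2.09 and -1.74 in KO, against -0.51, -0.23, -0.67 and -0.73 in control cells. Ifi44, an interferon-induced protein, was at 1.5, 1.85 and 2.18 in KO and 3.54, 3.83, 3.44 and 3.13 in control cells (adjusted p = 0.000539), and a second probe gave -0.80. Of the bright antiviral genes, Rsad2 (viperin) was not called: its levels were 5.94, 5.92 and 6.1 in KO and 6.34, 6.38, 6.35 and 6.38 in control cells, lower without overlap but with an adjusted p of 0.253.

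Among 21 interferon receptors, JAK-STAT components and IRF factors, 6 fell and 1 rose, where 2.29% of all genes tested fell and 2.46% rose. No receptor gene was among the 6 that fell. The gene that rose was Ifngr1, a chain of the interferon-γ receptor (0.36 ± 0.093, adjusted p = 0.0498), and its call was lost in 15 of 20 alternatives (adjusted p up to 0.347). Ifnar1 and Ifnar2 had log2 fold changes of 0.14 and -0.10 and overlapping arrays. Stat2, a signal transducer of that complex, was at -0.72, -0.57 and -0.39 in KO and -0.013, 0.10, 0.019 and 0.072 in control cells (log2 fold change -0.60 ± 0.12, adjusted p = 0.016). Irf9, its DNA-binding subunit, fell as well (-0.33 ± 0.080, adjusted p = 0.0363). The Stat2 call was lost in 3 of 20 alternatives (adjusted p up to 0.0977) and the Irf9 call in 13 of 20 alternatives (adjusted p up to 0.336). Irf7, which amplifies interferon production, was at -1.33, -0.66 and -0.33 in KO and 0.23, 0.55, 0.41 and 0.27 in control cells (adjusted p = 0.0432), and its call was lost in 8 of 20 alternatives (adjusted p up to 0.216). Socs1, a feedback inhibitor of the pathway, fell with overlapping arrays (-0.73 ± 0.18, adjusted p = 0.0467), and its call was lost in 9 of 20 alternatives (adjusted p up to 0.215). Leaving out 1 vehicle array at a time left 2 to 5 members lower, with 2 without KO array 5 or 6.

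Of 13 guanylate-binding and immunity-related GTPases tested, which attack the vacuoles of intracellular pathogens, 7 fell, where 2.29% of all genes tested fell. The other 6 were not called, and 2 of the 13 values were above 0 (median -0.85). Tgtp1 read -0.24, -0.36 and 0.58 in KO and 1.98, 2.06, 2.06 and 1.78 in control cells (log2 fold change -1.97 ± 0.30, adjusted p = 0.00237), with array 7 the highest KO value, while a second Tgtp1 probe gave -0.32. Iigp1 was at -0.23, -0.008 and 0.11 in KO and 1.3, 1.43, 1.22 and 1.26 in control cells (adjusted p = 0.00163). Irgm1, a regulator of that family, was at 2.94, 3.01 and 3.32 in KO and 3.92, 3.96, 3.94 and 3.97 in control cells (adjusted p = 0.000748), with its other probes at -1.0 to 0.14. Gbp2, a bright member that was not called, was at 0.16, 0.31 and 0.25 in KO and 0.47, 0.88, 0.70 and 0.84 in control cells. Of 13 Schlafen and Ifi200 genes, 10 fell (median -0.73). All 13 lay lower in KO cells without overlap, where 7.91% of all genes tested did. Slfn1, a Schlafen protein that restrains T cell growth in mice, had levels of 0.91, 1.48 and 1.66 in KO and 2.6, 2.64, 2.82 and 2.95 in control cells (adjusted p = 0.00237). Ifi204, a DNA sensor, was at 4.66, 4.73 and 4.8 in KO and 5.32, 5.4, 5.27 and 5.29 in control cells (log2 fold change -0.59 ± 0.10, adjusted p = 0.00402). Members of these families resemble each other in sequence, so a probe may also read a relative.

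The promoters of the lower interferon genes can be read directly. The letters of the response element, GAAA followed after any 2 bases by another GAAA, on either strand, were searched in the 250 bases before each RefSeq transcription start (GRCm38.p6) of the 12505 tested genes that the RefSeq promoter table names. They occurred in 3.44% of all these genes, in 42 of 336 lower genes (12.5%), in 16 of 372 higher genes (4.30%) and in 372 of 11797 genes not called (3.15%). Called genes had slightly more annotated starts per gene (1.42 for higher, 1.34 for lower and 1.24 for genes not called), which adds letters to search. All 8 guanylate-binding and immunity-related GTPase genes with an entry held it, as did 7 of 12 Schlafen and Ifi200 genes and 10 of 28 antiviral genes, irrespective of their call. It was held by 3 of 21 class I genes (14.3%) and 1 of 13 Ly6 and MS4A genes (7.69%). In lists whose called members rose, 2 of 18 protease and inhibitor genes (11.1%), 1 of 17 sterol genes and 0 of 12 LXR and apolipoprotein genes held it. The interferon-γ type element TTCNNNGAA was found in 8.04% of lower, 6.99% of higher and 7.55% of all genes. By list it was found in 5 of 8 GTPase genes (62.5%), 6 of 28 antiviral genes (21.4%) and 0 of 12 Schlafen and Ifi200 genes. Windows of 6 lower genes are shown 5′ to 3′ on the gene's strand, with the matching letters in capitals; overlapping matches run together. They lie at chr19:34583333-34583456 (+ strand) for Ifit3, chr19:34640745-34640853 (+ strand) for Ifit1, chr4:156200835-156200936 (- strand) for Isg15, chr5:120907526-120907585 (- strand) for Oas1a, chr11:48992274-48992363 (- strand) for Tgtp1 and chr11:48871421-48871490 (- strand) for Irgm1.
Ifit3: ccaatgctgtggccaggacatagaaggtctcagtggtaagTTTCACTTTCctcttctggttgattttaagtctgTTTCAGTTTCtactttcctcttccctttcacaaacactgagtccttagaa
Ifit1: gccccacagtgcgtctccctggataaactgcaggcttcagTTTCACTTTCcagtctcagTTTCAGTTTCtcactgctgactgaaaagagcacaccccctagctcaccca
Isg15: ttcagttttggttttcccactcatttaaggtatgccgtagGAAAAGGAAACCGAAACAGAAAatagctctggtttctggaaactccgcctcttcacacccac
Oas1a: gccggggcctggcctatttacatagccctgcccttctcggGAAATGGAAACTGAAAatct
Tgtp1: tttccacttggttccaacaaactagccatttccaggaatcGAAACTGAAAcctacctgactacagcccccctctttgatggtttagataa
Irgm1: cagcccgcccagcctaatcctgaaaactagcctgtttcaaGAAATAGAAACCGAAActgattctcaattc

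Ifit3 and Ifit1 each hold 2 separate matches, both on the opposite strand. Isg15 holds 3 overlapping matches and Oas1a and Irgm1 hold 2 each, all on the gene's strand, and Tgtp1 holds 1. A match is a description of letters and says nothing of binding in these cells.

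Antigen presentation genes fell in part. Of 11 class II genes tested 4 fell, where 2.29% of all genes tested did. The 4 were H2-Ab1, H2-Aa and H2-Eb1, which encode the peptide-binding chains, and Cd74, the invariant chain that escorts them. H2-Ab1 read 1.17, 1.29 and 1.32 in KO and 4.06, 3.01, 4.23 and 3.88 in control cells (log2 fold change -2.53 ± 0.28, adjusted p = 0.000358), and its other 3 probes gave -1.64 to -0.37. Cd74 was at 2.48, 2.75 and 2.57 in KO and 5.11, 4.07, 5.29 and 4.91 in control cells (adjusted p = 0.0006). Control array 2 was the lowest control for all of H2-Ab1, Cd74, H2-Aa and H2-Eb1, and it still lay above every KO array. H2-Aa (-1.77 ± 0.26) and H2-Eb1 (-1.78 ± 0.26) changed to a like degree (adjusted p = 0.00193 and 0.00193), and a second H2-Aa probe gave -2.72. The 4 calls stood with each vehicle array left out in turn. Ciita, the class II master regulator, had a log2 fold change of -0.40 with overlapping arrays. H2-DMa, which loads peptides onto class II, had levels of -0.59, -0.92 and -0.68 in KO and -1.56, -1.27, -0.96 and -1.18 in control cells, higher without overlap but not called (adjusted p = 0.0565).

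Of 26 class I presentation genes, 9 fell, where 2.29% of all genes tested fell. The list's median log2 fold change was -0.32, with 25 of 26 values below 0. The non-classical gene H2-Q8 stood out, at -0.19, -0.27 and 0.84 in KO and 2.79, 2.96, 3.27 and 2.87 in control cells (log2 fold change -2.85 ± 0.23, adjusted p = 6.29e-05). H2-T22 was at 2.89, 2.88 and 3.11 in KO, against 4.13, 4.12, 4.25 and 4.01 in control cells (adjusted p = 0.000121), and the classical H2-K1 at 5.24, 5.24 and 5.44 in KO, against 5.91, 5.97, 6.05 and 6.04 in control cells (adjusted p = 0.00255). Psmb8, an immunoproteasome subunit, fell (-0.75 ± 0.15, adjusted p = 0.0112), with its call lost in 3 of 20 alternatives (adjusted p up to 0.0717), and B2m, the shared light chain, was not called (-0.11). Class I heavy chains are near copies, so their probes may share signal. Leaving out 1 vehicle array at a time left 3 to 8 class I genes lower, with 3 without KO array 5 or 6.

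The Ly6 and MS4A surface proteins, GPI-anchored and tetraspan molecules of which several mark monocytes, held some of the deepest falls. Of 22 tested, 12 fell and 0 rose (median -0.83), where 2.29% of all genes tested fell and 2.46% rose. Ly6a (Sca-1) was at 1.3, 1.89 and 3.02 in KO and 5.18, 5.45, 5.0 and 4.95 in control cells (log2 fold change -3.07 ± 0.33, adjusted p = 0.000335). Ly6c2, the Ly6C antigen of inflammatory monocytes, read 1.18, 1.72 and 2.76 in KO and 4.73, 5.01, 4.64 and 4.52 in control cells (adjusted p = 0.000313). Ms4a4c was at 0.77, 0.78 and 1.91 in KO and 3.73, 4.25, 3.9 and 4.02 in control cells (log2 fold change -2.82 ± 0.32, adjusted p = 0.000436), and a second probe gave -1.72. In all of Ly6a, Ly6c2 and Ms4a4c, KO array 7 had the highest KO level, more than 1 log2 unit above the next, and lay below every control. Ly6c2 is also one of the 7 monocyte markers above, of which Ly6c2 and Ccr2 were called lower.

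Siglec1 (CD169), an interferon-inducible sialic acid receptor, fell, with levels of 1.62, 1.92 and 2.54 in KO and 3.29, 3.45, 3.34 and 3.36 in control cells (adjusted p = 0.0015). A second Siglec1 probe gave 0.041, so its probes disagree. In the list of 22 Siglecs, paired and CD300 receptors, 3 rose and 2 fell, where 2.46% of all genes tested rose and 2.29% fell. Without KO array 5 or 6, 1 of this list fell. Next to Siglecf, the inhibitory receptors Pilra (1.33 ± 0.17, adjusted p = 0.000859) and Cd300a (0.76 ± 0.11, adjusted p = 0.0019) rose. C-type lectins split too, with 3 of 19 higher and 5 lower. Clec4n (dectin-2) was at 1.5, 1.3 and 1.59 in KO and 0.12, 0.12, -0.0071 and -0.31 in control cells (adjusted p = 0.000159). Clec7a (dectin-1), the receptor of fungal β-glucan, was at 5.79, 5.83 and 5.48 in KO and 4.34, 4.18, 4.3 and 4.45 in control cells (adjusted p = 4.8e-05). Against them, Clec4b1 read 3.49, 3.55 and 3.82 in KO and 4.71, 4.76, 4.93 and 4.84 in control cells (log2 fold change -1.19 ± 0.11, adjusted p = 0.000121), and Clec4a1, Clec4a2 and Clec4a3, of the DCIR group, had log2 fold changes of -1.09, -0.82 and -1.23. Cd69, an early activation antigen, fell as well (-1.62 ± 0.22, adjusted p = 0.00123).

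Chemokines and their receptors changed in both directions. Of 16 CC chemokines tested, 5 rose and 2 fell, where 2.46% of all genes tested rose and 2.29% fell. Ccl2, the main attractant of monocytes, was at 4.01, 4.52 and 3.9 in KO and 1.0, 0.24, 1.17 and 0.49 in control cells. That is 10.7-fold (log2 fold change 3.42 ± 0.22, adjusted p = 1.1e-05). Ccl7, which acts through the same receptor CCR2, read 2.16, 2.72 and 2.15 in KO and -0.59, -1.19, -0.64 and -0.98 in control cells (adjusted p = 9.65e-06). Ccl24 (eotaxin-2), an attractant of eosinophils, was at 0.86, 0.79 and 0.59 in KO and -1.27, -1.45, -2.02 and -1.78 in control cells (adjusted p = 0.00034). Ccl6 and Ccl9, among the brightest probes of the array, rose by less (0.69 ± 0.10 and 0.58 ± 0.090). Ccl5, an interferon-inducible chemokine, went the other way, at 0.82, 0.93 and 1.52 in KO and 3.5, 3.99, 3.34 and 3.59 in control cells (log2 fold change -2.51 ± 0.20, adjusted p = 6.29e-05). Ccl8 fell too (-0.94 ± 0.18, adjusted p = 0.0112), but was not called without KO array 5 or without KO array 6 (adjusted p up to 0.0726). Of 9 CXC chemokines only Cxcl14 was called, higher, at 0.87, 0.99 and 0.84 in KO and -0.52, -0.049, -0.28 and -0.31 in control cells (adjusted p = 0.00148).

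Of 20 chemoattractant receptors, 2 rose and 5 fell, where 2.46% of all genes tested rose and 2.29% fell. When any 1 array other than KO array 7 was left out, 3 receptors fell. Ccr1 was at 2.0, 2.32 and 1.37 in KO, against -1.65, -1.98, -1.45 and -2.15 in control cells, which is 13-fold (log2 fold change 3.7 ± 0.24, adjusted p = 1.5e-05). Ccr2, the receptor of Ccl2 and Ccl7, read 1.41, 1.51 and 1.89 in KO and 2.95, 3.25, 2.83 and 2.89 in control cells (adjusted p = 0.00116), and a second probe gave -2.07. Ccr3, the eotaxin receptor, was at 4.3, 4.53 and 4.38 in KO and 5.23, 5.43, 5.28 and 5.34 in control cells (adjusted p = 0.000679). The ligands Ccl2 and Ccl7 were higher and their receptor lower. These 3 receptor genes lie near each other on chromosome 9, with the probe of Ccr1 at chr9:123877790-123877849 and those of Ccr3 and Ccr2 between 123945225 and 124023007 (mm9). Other receptors called included Ccrl2 (0.91), whose call was lost in 7 of 20 alternatives (adjusted p up to 0.154), Cxcr3 and C5ar2. Without 1 vehicle array at a time, 3 to 4 receptors were lower and 1 to 2 higher.

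Several prostanoid genes changed. Cyclooxygenases turn arachidonic acid into prostaglandin H2, and separate synthases and receptors follow. Ptgs1 (COX-1), the constitutive cyclooxygenase, was at 1.22, 1.05 and 1.19 in KO and -2.36, -2.2, -1.95 and -2.5 in control cells. The spread within each group was small beside the difference of 10.6-fold (log2 fold change 3.41 ± 0.16, adjusted p = 1.63e-06). The prostaglandin E2 receptor Ptger2 read 2.94, 2.9 and 2.67 in KO and 1.25, 0.63, 0.81 and 1.08 in control cells (adjusted p = 6.81e-05), and the prostacyclin receptor Ptgir 1.44, 1.45 and 1.27 in KO and 0.12, -0.26, -0.51 and -0.039 in control cells (adjusted p = 0.000177), although a second Ptgir probe gave 0.11. Tbxas1, thromboxane synthase, rose as well (0.84 ± 0.12). Hpgds, which makes prostaglandin D2, fell to -0.019, 0.021 and 0.031 in KO, against 0.71, 0.73, 0.82 and 0.68 in control cells (adjusted p = 0.00481), and so did Hpgd, which inactivates prostaglandins (-1.39 ± 0.32, adjusted p = 0.0273), although its call was lost in 8 of 20 alternatives (adjusted p up to 0.147). In all, 5 of 21 eicosanoid genes rose and 2 fell, where 2.46% of all genes tested rose and 2.29% fell. The list's median was -0.051.

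Several proteases that cut extracellular matrix rose. Of 25 proteases and inhibitors tested, 6 rose and 0 fell, where 2.46% of all genes tested rose and 2.29% fell. The list's median was 0.28, and all 6 calls stood with each vehicle array left out in turn. Mmp13, a collagenase, was at 3.93, 4.31 and 2.88 in KO and 0.19, -0.43, -0.11 and -0.34 in control cells, 14.7-fold apart (log2 fold change 3.88 ± 0.36, adjusted p = 0.000148). Mmp12, the macrophage elastase, read 4.19, 4.3 and 3.29 in KO and 1.24, 0.52, 1.33 and 1.42 in control cells (adjusted p = 0.000982). Plaur, the urokinase receptor, was at 2.96, 2.92 and 2.35 in KO and 0.35, 0.040, 0.62 and -0.081 in control cells (adjusted p = 0.000358), with a second probe at 1.58, and its ligand Plau, urokinase itself, at -0.11, 0.33 and -0.22 in KO and -1.49, -1.51, -0.86 and -1.29 in control cells (adjusted p = 0.00199). Mmp19 (1.98 ± 0.35) and the coagulation protease F10 (1.97 ± 0.33) rose too (adjusted p = 0.00727 and 0.0048). Array 7 was the lowest KO array for each of these 6 genes. Among matrix and adhesion proteins, Thbs1 (thrombospondin-1) was at 3.82, 3.66 and 3.45 in KO and 2.39, 2.24, 1.45 and 1.68 in control cells (adjusted p = 0.0031), with a second probe at 0.82, and Spp1 (osteopontin) at 5.78, 6.07 and 5.67 in KO and 5.0, 4.57, 4.71 and 4.69 in control cells (adjusted p = 0.000524).

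The promoters of several of these proteases hold the AP-1 site TGANTCA, the letters bound by FOS and JUN dimers. It occurred in the 250 upstream bases of 6 of 18 protease and inhibitor genes (33.3%) with an entry, against 6.51% of all tested genes and 6.72% of the genes called higher. In lists whose called members fell, 7 of 28 antiviral genes (25%), 3 of 12 Schlafen and Ifi200 genes (25%), 2 of 8 GTPase genes (25%) and 3 of 13 Ly6 and MS4A genes (23.1%) held it too. Windows of Mmp13 at chr9:7272439-7272513 (+ strand), Mmp12 at chr9:7347290-7347373 (+ strand) and Plaur at chr7:24462374-24462460 (+ strand) (GRCm38.p6) show the match in capitals.
Mmp13: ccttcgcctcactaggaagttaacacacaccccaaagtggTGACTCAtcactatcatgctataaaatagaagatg
Mmp12: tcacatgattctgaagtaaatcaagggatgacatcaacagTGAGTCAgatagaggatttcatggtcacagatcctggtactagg
Plaur: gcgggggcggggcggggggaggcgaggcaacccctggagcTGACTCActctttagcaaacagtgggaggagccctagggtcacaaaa

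A part of the genes of cholesterol supply rose. Of 24 genes of cholesterol synthesis and uptake, 10 rose and 0 fell, where 2.46% of all genes tested rose and 2.29% fell. The list's median was 0.43, with 22 of 24 values above 0. The squalene synthase Fdft1 was at 5.32, 5.38 and 5.39 in KO and 4.78, 4.64, 4.73 and 4.85 in control cells (log2 fold change 0.61 ± 0.10, adjusted p = 0.00439). Of the enzymes that act before it, Hmgcs1 (0.59 ± 0.10), Mvd (0.64 ± 0.15) and Idi1 (0.49 ± 0.092) rose. The probes of Hmgcs1 and Idi1 disagreed, with others at -0.29 to 0.025 and -0.11, and with the mean of a gene's probes neither was called. The Mvd call was lost in 11 of 20 alternatives (adjusted p up to 0.166) and the Fdft1 call with median scaling. Leaving out 1 vehicle array at a time left 5 to 8 of these genes higher, with 5 without KO array 5 or 6.

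The letters CCAAT, bound by the factor NF-Y, were found in the 250 upstream bases of 16 of 17 sterol genes (94.1%) with an entry, against 39.7% of all tested genes and 40.6% of the genes called higher. The element TCACNCCAC, which resembles the site of the sterol regulator SREBP, was found in 1 of the 17, Hmgcs1, and in 1.27% of all tested genes. The windows of Hmgcs1 at chr13:119690101-119690350 (+ strand), Mvd at chr8:122443423-122443522 (- strand) and Idi1 at chr13:8885521-8885605 (+ strand) (GRCm38.p6) carry these matches in capitals; ATTGG is CCAAT on the other strand.
Hmgcs1: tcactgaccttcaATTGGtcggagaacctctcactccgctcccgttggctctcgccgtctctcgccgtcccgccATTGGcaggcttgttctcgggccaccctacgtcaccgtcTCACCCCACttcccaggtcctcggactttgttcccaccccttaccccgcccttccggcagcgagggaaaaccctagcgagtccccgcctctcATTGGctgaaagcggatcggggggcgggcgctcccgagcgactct
Mvd: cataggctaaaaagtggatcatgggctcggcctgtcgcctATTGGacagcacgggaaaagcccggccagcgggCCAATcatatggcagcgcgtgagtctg
Idi1: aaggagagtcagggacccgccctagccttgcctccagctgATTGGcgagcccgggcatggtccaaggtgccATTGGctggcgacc

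Apolipoprotein genes of the Apoe cluster rose next to each other. Apoc2, the activator of lipoprotein lipase, was at 5.26, 5.27 and 5.62 in KO and 3.55, 3.02, 3.09 and 3.19 in control cells (log2 fold change 2.17 ± 0.15, adjusted p = 1.94e-05), and here array 7 was the highest KO array. Apoc1 read 0.80, 1.18 and 1.19 in KO and -1.38, -1.05, -1.31 and -1.49 in control cells (adjusted p = 0.000111). Apoe, a very bright probe, was at 8.05, 8.16 and 8.15 in KO and 7.75, 7.72, 7.7 and 7.74 in control cells (log2 fold change 0.39 ± 0.078, adjusted p = 0.0138), and its call was lost in 7 of 20 alternatives (adjusted p up to 0.57). Abca1, the cholesterol exporter, rose (0.69 ± 0.13, adjusted p = 0.00836), with its call lost in 3 of 20 alternatives (adjusted p up to 0.0571). Scd2, a stearoyl-CoA desaturase, was at 3.23, 3.22 and 2.65 in KO and 1.52, 0.79, 1.58 and 1.49 in control cells (adjusted p = 0.0014). Of 19 LXR targets and apolipoproteins, 5 rose and 0 fell, where 2.46% of all genes tested rose and 2.29% fell. With 1 vehicle array left out, 3 to 7 of the list rose, the fewest without KO array 6. The fatty acid carriers Fabp4, at 3.5, 3.58 and 3.2 in KO and 2.23, 1.58, 2.04 and 1.88 in control cells, and Fabp5, at 3.35, 3.45 and 3.21 in KO and 2.22, 1.69, 1.96 and 2.01 in control cells, rose (adjusted p = 0.000988 and 0.000159).

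Of 23 CSF receptors and macrophage lineage genes, 7 rose and 1 fell (median -0.017), where 2.46% of all genes tested rose and 2.29% fell. Without KO array 5 or 6, 3 rose, and the call of the gene that fell was lost when any 1 array other than KO array 7 was left out. Itgax (CD11c) was at 3.58, 3.75 and 2.62 in KO and 1.1, 0.80, 1.28 and 1.56 in control cells (log2 fold change 2.13 ± 0.25, adjusted p = 0.000576; second probe 1.6), and Itgam (CD11b) at 3.0, 3.19 and 2.7 in KO and 1.49, 1.3, 1.73 and 1.58 in control cells (adjusted p = 0.000586). Of 19 integrins, 3 rose and 0 fell. Adgre5 (CD97), an adhesion receptor, was at 3.37, 3.34 and 3.09 in KO and 1.17, 0.93, 1.0 and 1.08 in control cells (adjusted p = 5.69e-05). Csf2rb, the shared chain of the GM-CSF, IL-3 and IL-5 receptors, read 5.88, 5.94 and 5.42 in KO and 4.74, 4.47, 4.62 and 4.72 in control cells (adjusted p = 0.000798), with its other probes at 0.20 to 1.43. Cebpa, a factor of myeloid development, rose (0.83 ± 0.16, adjusted p = 0.00997) but was not called without KO array 5 or without KO array 6 (adjusted p up to 0.0647). Csf1r rose by 0.42 ± 0.093, a call that was lost in 9 of 20 alternatives (adjusted p up to 0.235). Mfge8, a bridge between dying cells and phagocytes, was at 5.74, 5.91 and 5.45 in KO and 3.46, 3.13, 3.35 and 3.64 in control cells (adjusted p = 0.000177), whereas Axl, a receptor for such cells, was at 0.88, 0.93 and 1.29 in KO and 2.2, 2.12, 2.2 and 2.02 in control cells (adjusted p = 0.000393). The 9 Fc receptor genes tested changed both ways, with 2 higher and 3 lower and a lowest log2 fold change of -2.29. With 1 vehicle array left out, 1 to 3 of them fell. Of the Fc receptors for IgG, Fcgr2b (0.91 ± 0.16) and Fcgr3 (0.82 ± 0.10) rose, and Fcgr1 fell (-0.68 ± 0.15), with its call lost in 10 of 20 alternatives (adjusted p up to 0.149).

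Other secreted and metabolic genes were called as well. C3, the central complement protein, was at 2.71, 2.64 and 3.6 in KO and 4.28, 4.84, 4.39 and 4.53 in control cells (adjusted p = 0.00862), but was not called without KO array 5 or without KO array 6 (adjusted p up to 0.0575). Cd55, a membrane inhibitor of complement, fell (-1.77 ± 0.17, adjusted p = 0.00019). A second Cd55 probe gave 0.082, so the Cd55 probes disagree. Il1b was at -0.48, -0.81 and 0.44 in KO and 1.14, 1.78, 1.14 and 1.07 in control cells (adjusted p = 0.012) and was not called without KO array 5 or without KO array 6 (adjusted p up to 0.0737). Casp1, which activates it, fell as well (-0.45 ± 0.10), with its call lost in 9 of 20 alternatives (adjusted p up to 0.14). Entpd1 (CD39), which breaks down extracellular ATP, was at 2.81, 2.89 and 2.8 in KO and 1.54, 1.44, 1.53 and 1.7 in control cells (adjusted p = 0.000121). Ada, which breaks down adenosine, read -3.52, -3.17 and -3.45 in KO and -1.92, -2.31, -1.6 and -1.77 in control cells (adjusted p = 0.0109), and was not called without KO array 5 (adjusted p = 0.063). Ctsl, a lysosomal protease, was at 5.8, 5.97 and 5.5 in KO and 4.29, 4.06, 4.36 and 4.23 in control cells (adjusted p = 0.000177). Of 40 lysosomal genes 7 rose and 0 fell, where 2.46% of all genes tested rose and 2.29% fell. With 1 vehicle array left out, 2 to 4 lysosomal genes rose, with 2 without control array 1 or 2 or KO array 5 or 6. Anxa3, a phospholipid-binding annexin, was at 5.17, 5.26 and 4.8 in KO and 3.12, 2.9, 2.83 and 3.19 in control cells (adjusted p = 1.81e-05). Vegfa, the angiogenic factor, rose (0.91 ± 0.10), as did Prdx1, a peroxidase (1.28 ± 0.20), and Alas1, the first enzyme of heme synthesis (2.21 ± 0.23). Ccnd1, cyclin D1, fell to 3.14, 3.17 and 3.53 in KO, against 4.33, 4.37, 4.45 and 4.48 in control cells (adjusted p = 0.0006).

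In further groups 1 to 3 genes were called, where 4.75% of all genes tested were. Of 44 subunits of oxidative phosphorylation 1 was called, higher, with a median of 0.031. Glycolysis had 1 of 22 called (median 0.12), Toll-like and other pattern receptors 1 of 18 (median -0.099), inflammatory effectors 1 of 19 (median 0.014) and nuclear receptors 2 of 23 (median -0.0054). Of 35 cell cycle and replication genes 3 were called, with a median of 0.092. Each of the single calls in oxidative phosphorylation, glycolysis, pattern receptors and inflammatory effectors was lost with at least 1 vehicle array left out. Of the nuclear receptors, the higher call was lost with any 1 vehicle array left out and the lower call without control array 3 or 4 or any 1 KO array.

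**Figure D4:**
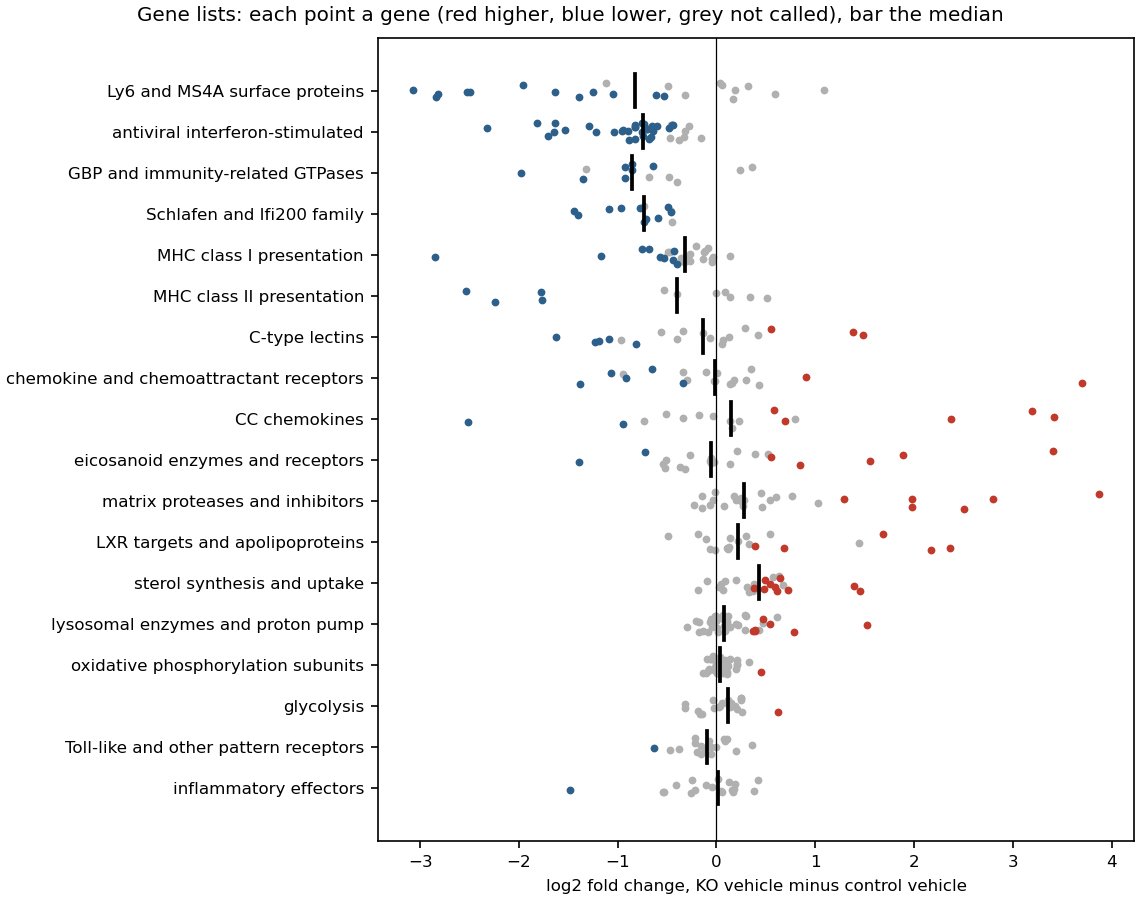
Log2 fold change (KO vehicle minus control vehicle) of the tested members of 18 gene lists; red points rose, blue points fell, grey points were not called, and the bar is the list's median. The interferon, Schlafen and GTPase lists sit left of 0 with medians of -0.75, -0.73 and -0.85, the sterol list right of 0 at 0.43, and the oxidative phosphorylation list within -0.14 to 0.45.

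Genes of alternative activation were tested without any IL-4. Of 28 such genes, 9 rose and 3 fell in KO cells, where 2.46% of all genes tested rose and 2.29% fell. The list's median log2 fold change was 0.13, with 15 values above 0 and 13 below. Without control array 3 or KO array 5 or 6, 1 of the 28 fell. Beside this stands the effect of IL-4 in control cells, in which 22 of the 28 rose and 0 fell, where 2.8% of all genes rose and 2.9% fell. The list's median with IL-4 was 2.15. Both comparisons use the same control vehicle arrays, so their values are only set side by side. Ptgs1 changed by 3.41 with HDAC3 loss and by 4.4 with IL-4 in control cells. Egr2, a transcription factor of the IL-4 response, was at 6.19, 6.21 and 5.65 in KO and 4.19, 3.65, 4.09 and 4.25 in control vehicle cells (log2 fold change 1.97 ± 0.16, adjusted p = 6.29e-05) and changed by 2.73 with IL-4. Itgax changed by 2.13 with HDAC3 loss and 3.92 with IL-4, Ccl24 by 2.37 and 1.72, Clec7a by 1.38 and 2.04, and Mrc1, the mannose receptor, by 0.56 and 1.35.

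Arg1, Retnla and Chil3, known from alternative activation, did not pass the test in resting KO cells, while Mrc1 was called higher (adjusted p = 0.00433). Arg1, arginase 1, was at -2.19, -2.44 and -2.33 in KO and -2.96, -2.97, -2.69 and -2.47 in control vehicle cells. It was higher without overlap but not called (log2 fold change 0.45 ± 0.16, adjusted p = 0.199), against a change of 4.02 with IL-4. Retnla was well above background on 0 of 3 KO and 1 of 4 control vehicle arrays and was not called (adjusted p = 0.505). Chil3 overlapped between the groups (-0.10), with array 7 at -0.84 and the other KO arrays at 0.76 and 0.80. Il4ra, the receptor chain, rose (0.79 ± 0.17), with its call lost in 8 of 20 alternatives (adjusted p up to 0.105), and so did Klf4 (0.43 ± 0.11), lost in 12 of 20 alternatives (adjusted p up to 0.26). Pparg, at 1.98, 2.0 and 1.99 in KO and 2.54, 2.65, 2.76 and 2.71 in control cells, and Irf4, at -0.90, -0.99 and -0.88 in KO and -0.38, -0.30, -0.27 and -0.025 in control cells, fell (adjusted p = 0.0182 and 0.00725), while IL-4 raised them by 1.04 and 2.54 in control cells. The Pparg call was lost in 8 of 20 alternatives (adjusted p up to 0.104), the Irf4 call in none of them. Leaving out 1 vehicle array at a time left 7 to 8 members higher and 1 to 2 lower.

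Called genes lay partly in runs of neighbours. Runs of at least 3 genes called the same way, with probe starts no more than 300 kb apart (mm9), held 93 of 436 lower genes with a position (21.3%) in 21 runs, and 41 of 467 higher genes (8.78%) in 12 runs. Of these, 8 lower runs and 1 higher run had at least 5 genes. The MS4A run on chromosome 19 (11122349 to 11661485) held 8 lower genes among 14 tested in its span, and the Ifit run (34548418 to 34723855) 5 of 8, with Ch25h beside the Ifit genes. The Ly6 run on chromosome 15 (74789467 to 75102522) held 5 of 6, and the Ifi200 run on chromosome 1 (175401530 to 175956806) 6 of 8. The Schlafen run on chromosome 11 (82691553 to 83003033) held 6 of 9, and the run across class I and II genes on chromosome 17 (34052404 to 34452511) 8 of 28. All 4 tested genes of the Clec4a run on chromosome 6 (122878028 to 123090735) fell. Among higher runs, Apoc2, Apoc1 and Apoe were 3 of 3 on chromosome 7 (20257027 to 20281791). Most runs hold members of a family that resemble each other, so neighbours are not independent measurements. Within 5 Mb of Lyz2, whose promoter drives Cre, 3 of 44 tested genes were called (6.82%), and around Hdac3 3 of 91 (3.3%), where 4.75% of all genes tested were.

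The IL-4 arrays, which do not enter the vehicle group means, measured the same genotype difference in cells given IL-4. Both comparisons come from the same fit over 13 arrays and share each gene's estimate of spread, so their calls are not independent. Of the 505 genes higher in vehicle, 268 were also called higher in KO IL-4 against control IL-4 cells, which is 53.1% of the vehicle list and 62.9% of the 426 genes higher there (2.07% of genes tested). Of the 470 lower genes, 242 were called lower again, 51.5% of the vehicle list and 72.2% of the 335 lower there (1.63%). None was called the opposite way, and 497 of the 505 and 461 of the 470 had the same sign, where 46.7% of all genes were above 0 and 53.3% below 0 in the IL-4 arrays. Of the 38 antiviral genes, 33 were lower in the IL-4 arrays, among them Ifit3 (-2.57). Siglecf (4.88), Mmp13 (3.79), Ccl2 (3.25) and Ly6a (-3.88) stood there beside 5.36, 3.88, 3.42 and -3.07 in vehicle. Ptgs1 was the only gene whose genotype effect differed between vehicle and IL-4 by the interaction test. Its fold change in the IL-4 arrays was 0.54 (adjusted p = 0.127), against 3.41 in vehicle. Leaving out KO array 5 lowered the shared genes to 151 higher and 146 lower, and leaving out KO array 6 to 153 and 149.

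**Figure D5:**
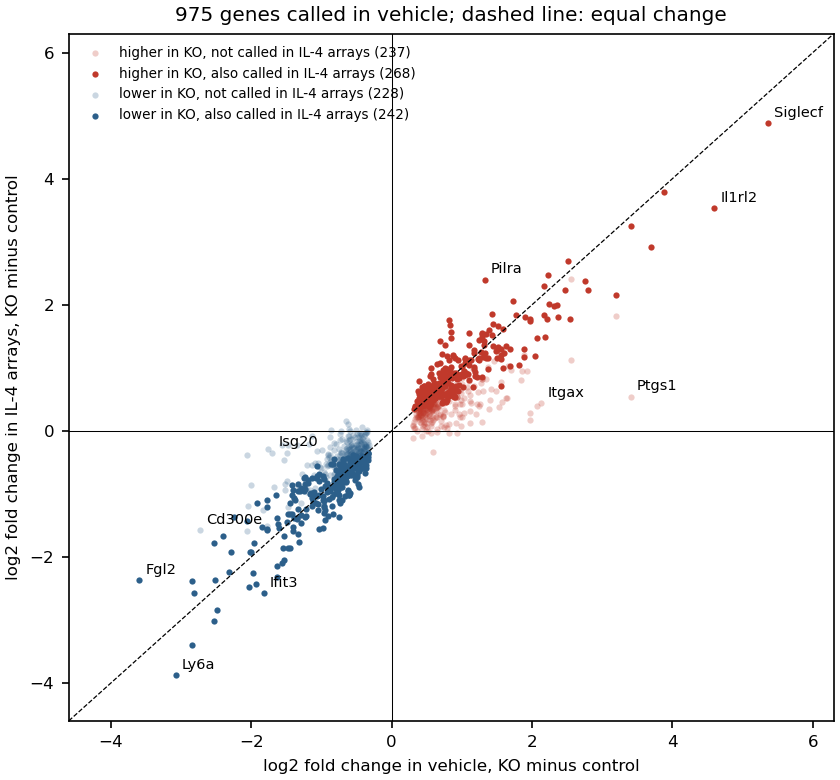
Log2 fold change in the IL-4 arrays (KO IL-4 minus control IL-4) against that in vehicle (KO vehicle minus control vehicle) for the 975 genes called in vehicle; full colour marks genes called in the same direction in both, pale points genes called in vehicle only, and the dashed line equal change. Of the points, 268 higher and 242 lower genes are in full colour, and Ptgs1 lies far below the line at 3.41 in vehicle and 0.54 in the IL-4 arrays.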

How the data were processed

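RNA of 13 macrophage samples was amplified with NuGEN Ovation V2, labelled with Cy3 and hybridised to one-colour Agilent mouse arrays, per the labels' protocols. The deposited scanner files hold the processed signal as an intensity per spot, made by the authors with Agilent Feature Extraction (10.5.1.1 per the file headers, 9.53 per the submitters' processing notes). The authors' deposited value table holds whole-number linear intensity values (39280 probes). The log2 of each column correlated at 0.998 or more with the log2 processed signal of its array. The notes also name limma, and the genome build behind the probe positions is mm9, per the file headers.

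Control spots, outlier spots and 101 probes whose spots were all outliers on at least 1 array were left out. The log2 signal minus the 75th percentile of the array was fitted with limma 3.58.1 (R 4.3.3, lmFit and eBayes, 4 group means over 13 arrays, two-sided). A probe was kept (29059 of 41073) if all arrays of 1 or more groups called it well above background, and the brightest probe stood for its gene. Where a gene's other probes differed by over 0.5 on the log2 scale or in sign, the text gives them. Of the probes, 80.4% were named through RefSeq and the rest by the files' names. The number of arrays limits the precision, and the median SD within a group was 0.149 in KO and 0.180 in control vehicle cells. The fit was tested on simulated data. Replicate numbers are not shared between groups; the slide served as the block.

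The gene lists and the genes described were chosen with earlier results of these data known. Genes were named by rule: the 30 largest changes each way, and of each list up to 6 members with the smallest p and 3 bright members not called. Named after their values were seen were Ncor1, Ifit2, Ifit1, Isg15, Isg20, Oas1a, Ifih1, Ddx58, Ifnar1, Ifnar2, Ifngr1, Ciita, Mrc1, Clec4a1, Ccl8, Hpgd, Mvd, Il4ra, Arg1, Retnla, Chil3, Cxcr3 and Epx. Some genes are counted in their lists but not reported here by name. Promoter sequences are from RefSeq on GRCm38.p6; none of mm9 was used here. Alternatives were quantile normalization, normexp, median scaling, the authors' table, no filter, a filter on all 7 vehicle arrays, the mean of probes, trend and robust eBayes, slide as a fixed or random block, the 7 vehicle arrays alone, array weights, at least 2-fold change, and each vehicle array left out. Leaving out both arrays with the fewest spots above background was added after seeing the data.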

Additional observations from a re-analysis of the deposited data

Results flagged for a closer look

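In each of 5 genes, 1 control vehicle array stood apart from the other 3 by Dixon's criterion, among 133 genes examined, where chance alone marks about 1 group in 20. Psmb8 was at 2.7582 on control array 3, and at 2.5104 to 2.5235 on the other control arrays. Hpgd was at 0.0661 on control array 1, and at 0.513 to 0.604 on the others. On control array 2, Scd2 was at 0.7902, with the others at 1.485 to 1.5842. Il1b was high on control array 2, at 1.7778, with the others at 1.0651 to 1.1443. Epx was at -4.3241 on control array 3, with the others at -3.1986 to -3.0236. All values are log2 levels relative to the 75th percentile.

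The effect of HDAC3 loss on Ptgs1 differed between the IL-4 and the vehicle arrays by -2.86 on the log2 scale (-2.8628; limma interaction term). It was the only gene of 20545 called by that test. An unadjusted p under 0.05 for the interaction term was found for 801 genes. That is less than a share of 0.05 of the genes tested, the share that chance alone would give.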

How the results depend on the processing

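Of the 118 called genes named in the text, 87 kept their call and direction under each of the 20 alternatives in which they were tested. The call was lost in at least 1 for 31, and 0 changed sign. A gene without a probe well above background on all 7 vehicle arrays was not tested under the filter that asks for this. The counts of genes higher and lower (505 and 470) became 971 and 829 with array weights, 807 and 802 with normexp, 227 and 292 with median scaling, 145 and 135 at 2-fold or more, and 336 and 281 without both arrays of fewest spots above background. With 1 vehicle array left out they ran from 244 to 479 and from 214 to 371, in fits with fewer arrays. With the slide as a fixed block (replicate block) they were 396 and 350. Counts shared with the IL-4 arrays (268 higher and 242 lower) became 409 and 421 with weights, 431 and 374 with normexp, and 117 and 142 with median scaling. They fell to 177 higher without a filter and 125 lower without both arrays, and ran from 151 to 229 higher and from 146 to 210 lower with 1 array left out. Of list values, 349 of 2120 moved by over 1.5 times or the spread, and of the 24 medians over 0.1 in size 3 changed sign: CXC chemokines to 0.0217 without KO array 7 (from -0.3133 over the arrays left out), alternative activation to -0.0372 with no filter, and interferon receptors and JAK-STAT factors to 0.0282 with the mean of probes. Of the 18 smaller medians 12 changed sign under at least 1 alternative. The cause of these shifts was not tested. Dim probes limit genes such as Cd55 and Fgl2, which were not well above background on all KO arrays.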
